A study of Mus musculus with 3 samples.

Results

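The 9 genes described here take up retinol, store it, turn it into retinoic acid or bind retinoic acid in the nucleus, and they were chosen by name (Rpe65, Lrat, Stra6, Rdh10, Aldh1a1, Aldh1a2, Aldh1a3, Rarb and Rxrg), out of 32227 genes in the count matrices. Their unique molecular identifiers (UMIs, 1 per captured transcript) were counted in single nuclei of mouse dorsal root ganglia (DRG) from the lumbar level, which hold the cell bodies of sensory neurons. The adult group was 1 library from C57BL/6 mice of 3 months, and the aged group was 2 libraries from C57BL/6 mice of 21 months. All were labelled male, none carried a treatment or an added allele, and the number of mice in a library was not given in the labels. The study's texts give another age and another sex for aged mice in places, and the sample labels were used. The genes were picked because their levels stood out by cell class and, for Rpe65 in satellite glial cells (SGCs), by age, so levels by class and the age difference in SGCs are given as descriptions, without a test.

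Vitamin A circulates as retinol bound to a carrier protein. Cells take it up through the membrane receptor that Stra6 encodes, store it as retinyl esters through the acyltransferase encoded by Lrat, or oxidize it to retinal with Rdh10 and then to retinoic acid with an aldehyde dehydrogenase (Aldh1a1, Aldh1a2 or Aldh1a3). Retinoic acid binds receptors of the RAR family (Rarb is one), which pair with RXRs (Rxrg is one) on direct repeats in DNA. Rpe65 encodes the isomerohydrolase of the visual cycle, known from the retinal pigment epithelium, where it turns the esters made by Lrat into 11-cis-retinol.

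Of the 9 genes, 7 had 12 promoters in the RefSeq promoter table (GRCm38.p6), and Rdh10 and Aldh1a3 had no entry. Each promoter held 250 bases before and 50 after the start. They were searched on both strands for a direct repeat of the half-site AGGTCA (the variants AGTTCA and also GGGTCA as well as GGTTCA were allowed) spaced by 5 bases, a form that RAR and RXR pairs bind. It was found in 32 of 32851 promoters (0.0974%), which included 1 of the 12 promoters of these genes, that of Rarb, a textbook retinoic acid-responsive gene. The same half-sites spaced by 1 or 2 bases were in 0 of the 12, against 0.222% and 0.268% of all promoters. The 250 bases before a RefSeq start are shown for Rarb, the only 1 of the 7 genes with a match, and for Rpe65, the gene with the largest age difference in SGCs, which had none. Capitals mark the match, which began 53 bases before that start. The Rarb stretch is chr14:16575477-16575726 on the minus strand, inside the annotated span of the gene and thus before an internal transcript start. The Rpe65 stretch is chr3:159598931-159599180 on the plus strand.
Rarb: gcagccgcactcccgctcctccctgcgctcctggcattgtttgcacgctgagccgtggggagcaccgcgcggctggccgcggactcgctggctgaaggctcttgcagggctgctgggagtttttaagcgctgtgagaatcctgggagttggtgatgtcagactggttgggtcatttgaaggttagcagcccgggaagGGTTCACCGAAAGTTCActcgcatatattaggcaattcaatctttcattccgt
Rpe65: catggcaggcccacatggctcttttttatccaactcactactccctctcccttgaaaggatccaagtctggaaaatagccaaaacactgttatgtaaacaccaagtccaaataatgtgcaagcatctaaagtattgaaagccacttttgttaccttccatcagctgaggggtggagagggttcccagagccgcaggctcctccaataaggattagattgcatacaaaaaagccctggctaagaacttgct
A match is a run of letters and is not shown to be a bound site in these nuclei.

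Libraries held 69045987 to 167664164 UMIs, and 11518 adult, 5130 aged replicate 1 and 2611 aged replicate 2 barcodes had more than 1000 genes and were kept as nuclei. Clusters were named from marker genes into 24 classes, called "like" a cell type because the names were rebuilt from markers. A level is given as CPM, the UMIs of a gene per 1000000 UMIs of its class and library. Classes are ordered only within a gene, and 23 classes, those reaching 10 nuclei in each library, enter the order. Summed UMIs do not tell fewer expressing nuclei from less RNA per nucleus. SGC-like nuclei were shallower in the adult library (median of 3093.5 UMIs) than in the aged ones (7240 and 7904). Libraries shared at most 1 kept barcode.

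**Figure D1:**
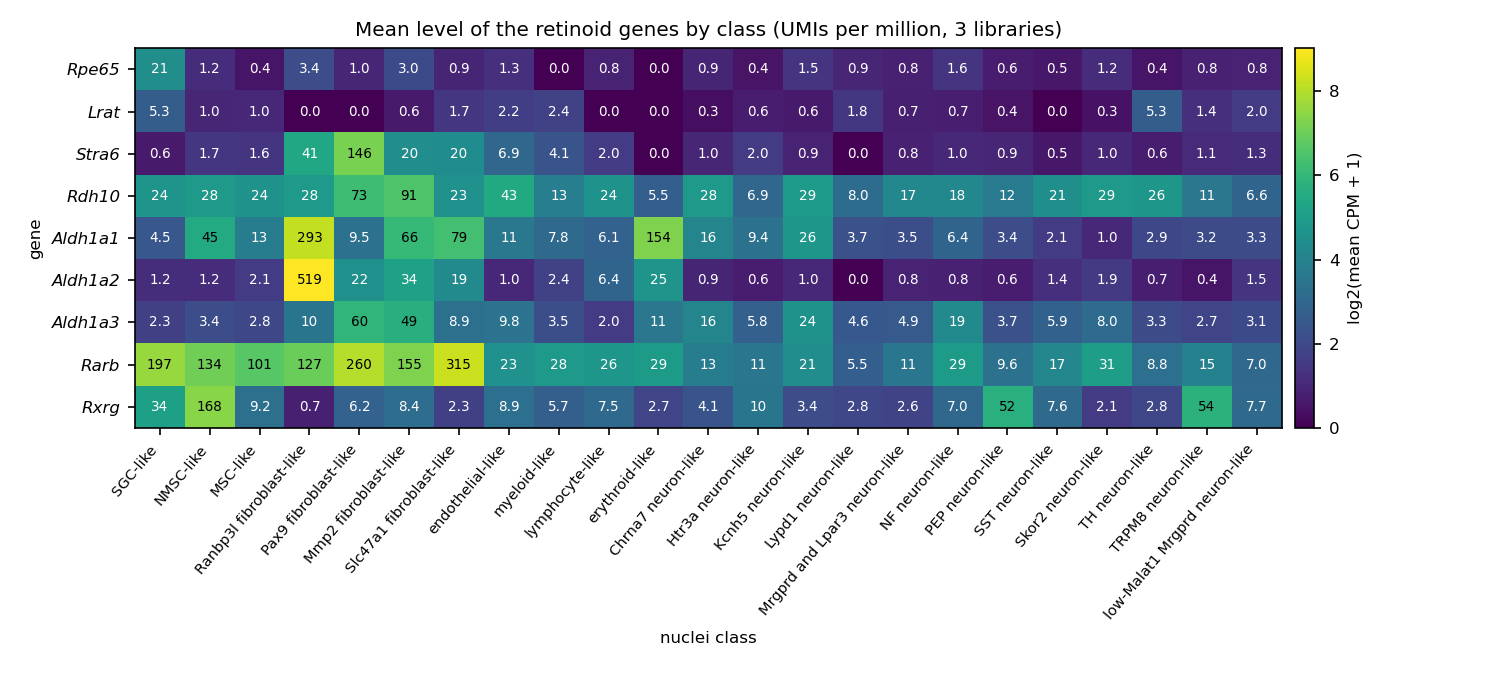
Mean CPM over the 3 libraries (numbers in the cells, color as log2 of the mean CPM + 1) for the 9 genes (rows) in 23 classes of nuclei (columns). Aldh1a2 was at 519 CPM in Ranbp3l fibroblast-like nuclei and at most 34.4 CPM elsewhere, and Rpe65 was at 21.2 CPM in SGC-like nuclei and at most 3.37 CPM elsewhere.

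The ester cycle was examined first. Rpe65 (chromosome 3, 159599175 to 159625321, plus strand, GENCODE M21 on GRCm38) was nearly absent from SGC-like nuclei of the adult library and present in those of both aged libraries. It had 20 UMIs in 3234 adult SGC-like nuclei (1.88 CPM), 91 UMIs in 423 nuclei of aged replicate 1 (26.9 CPM) and 69 UMIs in 229 nuclei of aged replicate 2 (34.8 CPM). The aged mean was 30.8 CPM ± 5.59 (SD, n = 2), and both aged libraries were far above the adult one. Pooled aged UMIs gave 15.8 times the adult level, with an exact 95% interval of 9.91 to 26.6 that covers counting error only, and the edgeR log2 fold change was 3.83. Over all genes, 16% passed the threshold by age in SGC-like nuclei, from which nothing is read here, since this difference chose the gene.

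At least 1 Rpe65 UMI was seen in 0.618% of adult SGC-like nuclei (exact 95% interval 0.378 to 0.954%), against 10.2% (7.45 to 13.4%) and 14.0% (9.76 to 19.2%) in the first and second aged replicate. Lymphocyte-like nuclei, which should lack the gene, had it in 0 of 247 adult nuclei, which allows a share of up to 1.21% when 3 counts are the limit (1.48% by the exact interval), in 0 of 155 of aged replicate 1, which allows 1.94% (2.35% by the exact interval), and in 1 of 120 of aged replicate 2 (0.833%), at median depths of 2019, 2489 and 2854.5 UMIs. A count of 0 in so few nuclei sets a limit and measures no background, so it does not place the adult SGC-like share, which was below the 2.05% of adult NF neuron-like nuclei (median depth 5512.5 UMIs). From the Rpe65 level in free RNA and estimated free RNA shares of 12.3%, 14.3% and 13.5% of UMIs, 1.47 of the 20 adult SGC-like UMIs would be free RNA, and 0.91 and 0.284 of the 91 and 69 aged ones. No adult SGC-like nucleus held more than 1 Rpe65 UMI, while 21 and 17 aged nuclei held 2 or more and the highest held 8 and 11. When every nucleus was thinned to 1000 UMIs, a depth that all nuclei reached, 4 adult, 6 aged replicate 1 and 3 aged replicate 2 nuclei kept a UMI (0.124%, 1.42% and 1.31%), levels too close to single UMIs to read a change from.

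Nuclei of like depth were also compared. Among SGC-like nuclei of over 2000 and up to 3000 genes, Rpe65 was at 1.84 CPM in 577 adult nuclei, 23.4 CPM in 139 nuclei of aged replicate 1 and 20.4 CPM in 62 nuclei of aged replicate 2. Above 3000 genes there was no Rpe65 UMI in the 50 adult nuclei, where a count of 0 allows 6.48 CPM, against 27.8 and 39.3 CPM in the aged libraries. Up to 2000 genes the aged libraries had only 14 to 28 nuclei a range, and their levels there (76.6 and 0 CPM in aged replicate 1, 0 and 17.3 CPM in aged replicate 2) rested on at most 4 UMIs. The aged levels were thus above the adult one in both ranges over 2000 genes, and the shallower ranges held too few UMIs to tell.

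SGC-like nuclei formed 2 clusters, and Rpe65 was unequal between them. In the larger cluster it was at 2.29 CPM in adult nuclei and at 34.4 and 38.7 CPM in aged ones, and in the smaller one at 0.937, 5.64 and 10.9 CPM, the last from 3 UMIs in 1 nucleus. A further cluster with markers of both neurons and SGCs, left out of the class, had 0.956, 7.84 and 7.83 CPM. Neuron markers summed to 425 CPM in adult SGC-like nuclei and to 576 and 607 CPM in aged ones, with 5 of 6 markers higher in both aged libraries and none at 0. Endothelial markers (62.2, 37.5 and 21.2 CPM in sum, 5 of 5) and 5 of 6 mural markers were lower in both aged libraries. SGC markers summed to 2537, 2256 and 2373 CPM with 4 of 7 lower and 2 higher, and markers of non-myelinating Schwann cells (NMSC) to 17163, 12390 and 12282 CPM with 2 of 6 lower and 4 higher. The NMSC list summed to 14608, 15103 and 14432 CPM in NMSC-like nuclei themselves and to 11334, 8862 and 9270 CPM in Chrna7 neuron-like nuclei. Here and in the classes below, its sum is thus not a measure of Schwann cell RNA alone. The part of these markers in the Rpe65 difference was not tested. In neuron-like nuclei themselves Rpe65 was at most 2.82 CPM in any class and library. Rpe65 in free RNA, taken as barcodes of under 100 UMIs, was at 1.13, 1.88 and 1.06 CPM.

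**Figure D2:**
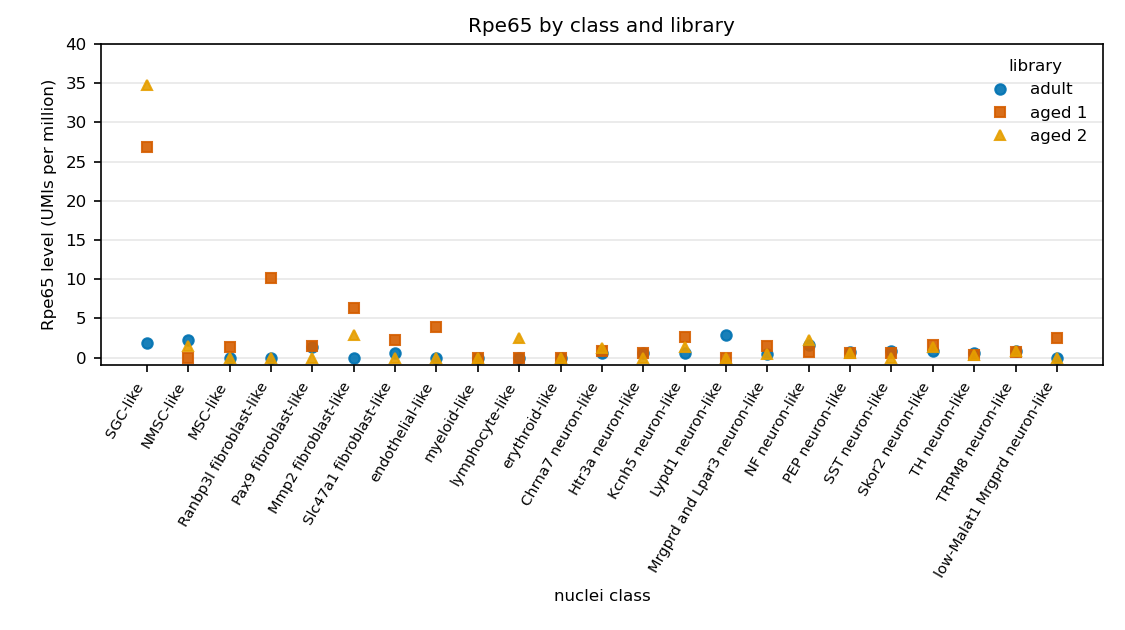
Rpe65 level (vertical axis, CPM, linear scale) in 23 classes of nuclei (horizontal axis), 1 point per library. The 2 aged libraries stand at 26.9 and 34.8 CPM in SGC-like nuclei, the adult library at 1.88 CPM, and 10.1 CPM in Ranbp3l fibroblast-like nuclei of aged replicate 1 is a single UMI.

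Outside SGC-like nuclei, Rpe65 had enough UMIs for the age test in 3 neuron-like classes (Kcnh5, NF, and Mrgprd and Lpar3) and passed in none of them, with 0 at an unadjusted p under 0.05. DESeq2 gave no adjusted p for it. In NMSC-like nuclei it had 3, 0 and 1 UMIs. The larger NMSC-like set made by assigning nuclei from at least 2 detected markers (843, 740 and 296 nuclei, against 457, 279 and 141 by cluster) held 0, 14 and 24. These counts are a description, since the age difference in SGCs chose the gene. That set rested on Scn7a, L1cam and Ngfr alone. The other NMSC markers were left out of it because they were as high in SGC-like or neuron-like clusters. Lrat (chromosome 3, 82892579 to 82903973, minus strand), which makes the esters that Rpe65 uses, was sparse everywhere, with 251 UMIs in all kept nuclei. Its level was highest in TH neuron-like nuclei, those of Th-expressing low-threshold mechanoreceptors, at 2.12, 6.68 and 7.16 CPM, and next in SGC-like nuclei, at 3.77, 4.43 and 7.56 CPM. The ranges of these classes overlapped, and the age difference in TH neuron-like nuclei did not pass (log2 fold change 1.56, SE 0.698, edgeR adjusted p = 0.383). Rpe65 and Lrat were seen in the same SGC-like nucleus 0 times in the adult library and 2 times in each aged library. The Rdh10 level in SGC-like nuclei was 19.1 CPM (adult), 26.0 CPM (aged replicate 1) and 27.7 CPM (aged replicate 2), a pooled aged to adult ratio of 1.39 (1.12 to 1.73 by counting error). Rdh5, which oxidizes 11-cis-retinol after Rpe65 and is not 1 of the 9 genes, was highest in SGC-like nuclei too, at 111, 44.0 and 52.9 CPM.

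Stra6 (chromosome 9, 58063788 to 58153996, plus strand) was highest in Pax9 fibroblast-like nuclei, a class named for fibroblast markers and led by Pax9 and Ccdc33. It stood there at 64.0 CPM in the adult library (97 UMIs), 141 CPM in aged replicate 1 (92 UMIs) and 234 CPM in aged replicate 2 (62 UMIs), so that both aged libraries lay above the adult one. The level rose with age (log2 fold change 1.42, SE 0.350, edgeR adjusted p = 0.0158), in a class where 2.62% of all genes passed. At least 1 UMI was seen in 14.1%, 27.2% and 39.7% of these nuclei, against 1.62%, 0% and 0% of lymphocyte-like nuclei. Thinned to 1000 UMIs, the shares were 4.71%, 13.3% and 17.2%. The NMSC list summed to 3078, 1769 and 767 CPM there, with 2 of its 6 markers lower and 1 higher in both aged libraries, while fibroblast markers summed to 2684, 2367 and 2848 CPM. The part of these markers in the call was not tested. The annotated span of Stra6 overlaps Ccdc33 on the opposite strand, and since the counting was not stated to use strand, their reads cannot be told apart with certainty. Ccdc33 was at 106, 176 and 200 CPM in the same nuclei. The call was lost with DESeq2 size factors (log2 fold change 1.43, edgeR adjusted p = 0.327), with the DESeq2 Wald test (log2 fold change 1.47, adjusted p = 0.675), and when nuclei were assigned one by one from at least 2 detected markers (log2 fold change 0.51, edgeR adjusted p = 0.621). Ranbp3l fibroblast-like nuclei came next for Stra6, at 38.5, 70.9 and 13.6 CPM from 18, 7 and 1 UMIs.

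Rdh10 (chromosome 1, 16105774 to 16133734, plus strand), which makes retinal from retinol, was found in nearly every class, with 3731 UMIs in all. It was highest in Mmp2 fibroblast-like nuclei, at 39.8 CPM in adult nuclei (24 UMIs) and 111 and 122 CPM in aged ones (53 and 43 UMIs). There it rose with age (log2 fold change 1.47, SE 0.418, edgeR adjusted p = 0.0156), where 4.28% of genes passed. With the DESeq2 Wald test the log2 fold change was 1.46 and the adjusted p 0.9997. In each aged library 9 UMIs came from 1 nucleus, and 20 and 16 aged nuclei held a UMI. Without the nucleus of most Rdh10 UMIs in each library the levels were 36.7, 93.1 and 109 CPM and the log2 fold change 1.35, with an edgeR adjusted p of 0.0568. With free RNA subtracted the log2 fold change was 1.36 and the edgeR adjusted p 0.278. NMSC markers summed to 2560 CPM in adult and to 5493 and 4917 CPM in aged nuclei of this class, with 3 of 6 higher and 3 lower in both aged libraries. B lymphocyte markers were lower there (123, 10.5 and 11.3 CPM in sum, 5 of 5 lower in both), as were 6 of 7 SGC markers, while 4 of 6 myeloid markers were higher, and the part of these markers in the call was not tested. Pax9 fibroblast-like nuclei followed at 36.3, 47.6 and 136 CPM, and endothelial-like nuclei at 26.5, 78.1 and 25.3 CPM, neither past the threshold by age. Of the 18 classes in which Rdh10 was tested with edgeR, 1 passed and 6 had an unadjusted p under 0.05. The fold change was positive in 16 of the 18, which share their 3 libraries. In Htr3a neuron-like, Slc47a1 fibroblast-like and myeloid-like nuclei only aged libraries carried Rdh10 past the filter on low counts, so no direction is read there.

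Aldh1a1 and Aldh1a2 were both highest in Ranbp3l fibroblast-like nuclei, a small cluster of 129, 22 and 12 nuclei led by Ranbp3l, Atp13a5, Slc22a8 and Ptgds, genes known from the leptomeninges. It held 4 of 6 fibroblast markers and 3 of 7 SGC markers, and the SGC list summed to 7334, 5314 and 6554 CPM there, above its sum in SGC-like nuclei (2537, 2256 and 2373 CPM) and above the fibroblast list in the same nuclei (1243, 1336 and 1115 CPM). The SGC markers Fabp7, Kcnj10 and Ednrb were at 0 in at least 1 of these small libraries. Aldh1a2 (chromosome 9, 71215789 to 71296243, plus strand) was at 398, 547 and 612 CPM there (186, 54 and 45 UMIs). Every library lay far above those of the next class, Mmp2 fibroblast-like nuclei at 14.9, 14.7 and 73.6 CPM. Aldh1a2 was seen in 71 of 129 adult, 10 of 22 and 9 of 12 aged Ranbp3l fibroblast-like nuclei, and in free RNA it was at 6.47, 3.37 and 2.72 CPM.

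Aldh1a1 (chromosome 19, 20492715 to 20643465, plus strand) was at 299, 213 and 367 CPM in the same nuclei (140, 21 and 27 UMIs, of which 15 of the 27 came from 1 nucleus). It was also seen in erythroid-like nuclei at 254, 133 and 73.7 CPM, from 14, 24 and 36 nuclei, and in Slc47a1 fibroblast-like nuclei at 87.9, 78.7 and 69.9 CPM. All 22 neighbouring pairs in its order overlapped in range. In Ranbp3l fibroblast-like nuclei, 35 of 129 adult nuclei held both Aldh1a1 and Aldh1a2, as did 6 of 22 and 4 of 12 aged nuclei. Aldh1a7, a close copy of Aldh1a1, had 1 UMI in this class, and reads shared between the copies could be split by the counting. The class had under 20 nuclei in aged replicate 2 and was not tested by age. Neither gene passed with edgeR in a class where it was tested, 13 for Aldh1a1 and 2 for Aldh1a2, of which 4 and 1 had an unadjusted p under 0.05. DESeq2 gave an adjusted p in 9 and 0 of these, and none passed. The largest Aldh1a1 difference, in Pax9 fibroblast-like nuclei (22.4, 6.14 and 0 CPM), had an edgeR adjusted p of 0.269.

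Cyp26b1, which clears retinoic acid and is not 1 of the 9 genes, had its highest level in the Ranbp3l fibroblast-like nuclei too, at 55.6, 91.1 and 95.2 CPM. Synthesis and clearance transcripts were thus both found in this cluster.

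Aldh1a3 (chromosome 7, 66390890 to 66427517, minus strand), another enzyme that makes retinoic acid from retinal, was found in neuron-like and fibroblast-like nuclei, and 4 neuron-like classes had lower levels in aged libraries. In Kcnh5 neuron-like nuclei the adult level was 41.1 CPM (324 UMIs), against 12.8 CPM in aged replicate 1 (63 UMIs) and 16.8 CPM in aged replicate 2 (38 UMIs). In Chrna7 neuron-like nuclei it was at 32.8, 8.07 and 8.03 CPM (285, 36 and 32 UMIs). In NF neuron-like nuclei, which carry neurofilament markers, it was at 29.0, 14.4 and 13.7 CPM (296, 93 and 42 UMIs). In each of these classes the aged libraries lay close together and well below the adult one.

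Aldh1a3 fell with age in Kcnh5 (log2 fold change -1.76, SE 0.233, edgeR adjusted p = 9.37e-12), Chrna7 (-2.26, SE 0.267, edgeR adjusted p = 1.04e-10) and NF neuron-like nuclei (-1.19, SE 0.227, edgeR adjusted p = 8.21e-06). It also fell in Mrgprd and Lpar3 neuron-like nuclei, a non-peptidergic nociceptor class, from 8.57 to 4.38 and 1.65 CPM (log2 fold change -1.57, SE 0.381, edgeR adjusted p = 0.00069), and the log2 fold change there was -2.43 without aged replicate 1 and -1.11 without aged replicate 2. With the DESeq2 Wald test this call was lost at a like fold (log2 fold change -1.61, adjusted p = 0.286). All 7 SGC markers were lower in both aged libraries of that class (209, 149 and 98.4 CPM in sum), as were 3 of 6 markers of myelinating Schwann cells (MSC) with 0 higher, and their part in the call was not tested. Marker lists moved in both directions in the other 3 classes. In Kcnh5 neuron-like nuclei the MSC list summed to 191, 115 and 86.4 CPM, with 5 of 6 lower and 0 higher in both and Mag at 0 in at least 1 library, and 5 of 5 B lymphocyte markers were lower, while 5 of 7 SGC markers (131, 155 and 163 CPM in sum) and 5 of 6 NMSC markers were higher. In NF neuron-like nuclei 5 of 6 fibroblast markers (90.5, 71.9 and 45.1 CPM in sum), 5 of 6 mural and 5 of 5 T lymphocyte markers were lower, while 4 of 6 NMSC and 4 of 6 myeloid markers were higher. In Chrna7 neuron-like nuclei 5 of 6 neuron markers were lower and 0 higher (3270, 3116 and 3003 CPM in sum), as were 4 of 5 T lymphocyte and 4 of 6 mural markers, while 4 of 5 endothelial and 4 of 6 NMSC markers were higher. The part of these markers in the calls was not tested. In these 4 classes 7.11%, 7.01%, 22.4% and 16.9% of all genes passed, so a call in the last 2 was less rare than in the others. The fold change was negative in all 9 neuron-like classes with a test, which share their 3 libraries, but only -0.04 in Htr3a neuron-like nuclei. In TH and SST neuron-like nuclei only the adult library carried Aldh1a3 past the filter on low counts, so no direction is read there. Of the 9 classes, 5 did not pass. TH neuron-like nuclei, at 6.95, 1.41 and 1.49 CPM, were among these (edgeR adjusted p = 0.0684), and passed without the filter on low counts (edgeR adjusted p = 0.0248, 1.34% of genes passed). With nuclei assigned from at least 2 detected markers, Aldh1a3 also passed as lower in PEP neuron-like nuclei (37, 2 and 4 UMIs, log2 fold change -2.69, edgeR adjusted p = 0.0448, 3.24% of genes passed). Only the adult library carried it past the filter on low counts there, so nothing is read from this call. Aldh1a3 also passed as lower in the NMSC-like set made that way (77, 29 and 13 UMIs, log2 fold change -1.45, edgeR adjusted p = 0.0256, 3.63% of genes passed). Rxrg was at 22.1, 35.5 and 42.6 CPM in that set, against 134, 164 and 207 CPM in NMSC-like nuclei by cluster. Which nuclei the set holds was not tested. By cluster the PEP difference did not pass (48, 22 and 10 UMIs, edgeR adjusted p = 0.268) and NMSC-like nuclei held 4, 4 and 3 UMIs. In Kcnh5 neuron-like nuclei the libraries had like median depths (9941, 9728.5 and 9844.5 UMIs), though higher mean depths in aged libraries (19990, 24565 and 28355 UMIs), and 28.4%, 19.5% and 17.5% of nuclei had a UMI (3.55%, 3% and 2.5% after thinning to 1000 UMIs). Within the same adult library Aldh1a3 was at 0.819 CPM in TRPM8 and 5.30 CPM in PEP neuron-like nuclei. TRPM8 neuron-like nuclei had no test, and were higher in the aged libraries, at 2.05 and 5.20 CPM (2, 3 and 6 UMIs). The other neuron-like classes without a test, low-Malat1 Mrgprd and Lypd1, were lower in both (4, 2 and 2 UMIs, and 4, 1 and 0 UMIs).

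Aldh1a3 in free RNA also differed: it was at 26.6 CPM in adult and at 12.6 and 11.1 CPM in aged free RNA. With the expected free RNA subtracted, 3 of the 4 neuron-like calls were kept and the Chrna7 call was not (log2 fold change -2.44, edgeR adjusted p = 0.0992). The SGC-like level, 5.37, 0.886 and 0.504 CPM from 57, 3 and 1 UMIs, lay below that of free RNA in every library. Without the nucleus of most Aldh1a3 UMIs in each library all 4 calls were kept, with edgeR adjusted p from 2.51e-12 to 0.000199. NF neuron-like nuclei joined a cluster of low Malat1, a nuclear RNA, with 1 of higher Malat1, and the call also held in the latter alone (log2 fold change -1.11, edgeR adjusted p = 0.00185, 7.35% of genes passed). Thinned to 1000 UMIs a nucleus, the NF call was lost (log2 fold change -0.81, edgeR adjusted p = 0.532), and the other 3 could not be fitted.

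In Pax9 fibroblast-like nuclei Aldh1a3 went the other way, at 10.6 CPM in the adult library (16 UMIs), 32.2 CPM in aged replicate 1 (21 UMIs) and 136 CPM in aged replicate 2 (36 UMIs). The difference passed there (log2 fold change 2.69, SE 0.578, edgeR adjusted p = 0.00448). Only the aged libraries carried Aldh1a3 past the filter on low counts in this class, so nothing is read from this call. The log2 fold change was 1.55 without aged replicate 2 and 3.62 without aged replicate 1. In this class endothelial markers summed to 133, 109 and 26.4 CPM, with 3 of 5 lower and 0 higher in both aged libraries. Of 6 myeloid markers 3 were higher and 0 lower in both. The part of these and of the NMSC markers in the call was not tested. A single nucleus held 22 of the 36 UMIs of aged replicate 2. Without the nucleus of most Aldh1a3 UMIs in each library the levels were 8.59, 23.2 and 57.1 CPM, and the difference no longer passed (log2 fold change 1.95, edgeR adjusted p = 0.0884), nor did it with DESeq2 size factors (log2 fold change 2.70, edgeR adjusted p = 0.426) or the DESeq2 Wald test (log2 fold change 2.90, adjusted p = 0.304), or after thinning to 1000 UMIs a nucleus (log2 fold change 2.04, edgeR adjusted p = 0.87). Mmp2 fibroblast-like nuclei were at 26.6, 33.6 and 87.8 CPM, with 16 of the 31 UMIs of aged replicate 2 in 1 nucleus, and did not pass (edgeR adjusted p = 0.321). Among nuclei above 2000 genes they did (edgeR adjusted p = 0.00264, 6.19% of genes passed), but nothing is read from this. The adult library had 0 UMIs there, so only the aged libraries carried the gene past the filter on low counts.

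**Figure D3:**
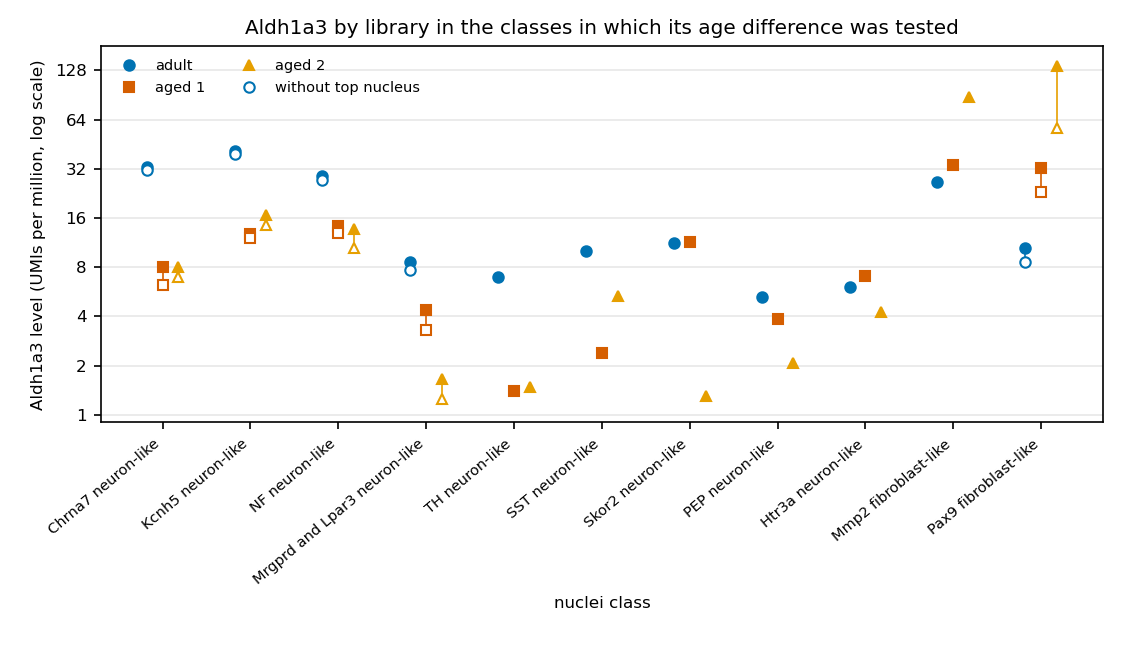
Aldh1a3 level (vertical axis, CPM, log scale) in the 11 classes in which its age difference was tested (horizontal axis), 1 filled point per library; open points leave out the nucleus with the most Aldh1a3 UMIs, for the classes that passed. The adult library is above both aged ones in Kcnh5 (41.1 against 12.8 and 16.8 CPM), Chrna7, NF, and Mrgprd and Lpar3 neuron-like nuclei and below them in Pax9 fibroblast-like nuclei, where the point of aged replicate 2 drops from 136 to 57.1 CPM without 1 nucleus.

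Of the receptors, Rarb (chromosome 14, 16430839 to 16819156, minus strand) had 8871 UMIs, the most of the 9 genes, and marked glia and fibroblasts rather than neurons. It was at 222, 409 and 315 CPM in Slc47a1 fibroblast-like, 245, 288 and 245 CPM in Pax9 fibroblast-like, and 232, 171 and 188 CPM in SGC-like nuclei. NMSC-like nuclei were at 132, 133 and 136 CPM and MSC-like nuclei at 89.4, 110 and 105 CPM. The order broke below them: every library of the MSC-like class was above every library of the next class, Skor2 neuron-like nuclei at 34.0, 24.3 and 35.7 CPM, and no neuron-like class was above 35.7 CPM in any library. Rarb passed by age in 0 of the 19 classes tested by edgeR outside SGC-like nuclei, and 2 of the 19 had an unadjusted p under 0.05 (Slc47a1 fibroblast-like and myeloid-like nuclei). DESeq2 passed it in 0 of the 15 in which it gave an adjusted p, while with nuclei assigned from at least 2 detected markers it passed in Slc47a1 fibroblast-like nuclei (log2 fold change 1.07, edgeR adjusted p = 0.0295, 3.42% of genes passed). In SGC-like nuclei the aged levels were 0.738 and 0.81 times the adult one. Both SGC-like clusters showed this, the larger at 242, 177 and 194 CPM and the smaller at 207, 155 and 145 CPM. The overlapping gene Top2b lies on the opposite strand of Rarb and was at 110, 122 and 137 CPM in Slc47a1 fibroblast-like nuclei. Since the counting was not stated to use strand, the reads of these genes cannot be told apart with certainty.

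Rxrg (chromosome 1, 167598384 to 167639623, plus strand) was highest in NMSC-like nuclei, the glia of unmyelinated axons, at 134, 164 and 207 CPM (179, 226 and 141 UMIs), with every library above those of all other classes. That order depended on how nuclei were assigned. When they were assigned from at least 2 detected markers, which put 843, 740 and 296 nuclei in the NMSC-like class, its Rxrg level was 22.1, 35.5 and 42.6 CPM, below the SGC-like level in each library (26.0, 36.1 and 44.5 CPM). By clusters, TRPM8 neuron-like nuclei, from cold-sensing neurons, were at 37.2, 49.1 and 75.4 CPM, and peptidergic (PEP) neuron-like nuclei at 40.1, 54.5 and 60.4 CPM, with overlapping ranges. SGC-like nuclei came next at 26.7, 38.1 and 36.3 CPM, below every library of the PEP neuron-like class, and all 19 other classes had means of at most 10.2 CPM. In these 3 tested classes (NMSC, TRPM8 and PEP) both aged libraries were above the adult one, with log2 fold changes of 0.28, 0.55 and 0.37, and none passed (edgeR adjusted p = 0.598, 0.566 and 0.384). Rxrg passed by age in 0 of 11 classes with edgeR, with 0 at an unadjusted p under 0.05, and in 0 of the 9 with an adjusted p from DESeq2.

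Over all 9 genes, 83 tests of age were possible in 19 classes outside SGC-like nuclei, and 7 passed (8.43%), 3 higher and 4 lower in aged libraries. Over all genes 6.78% of tests in these classes passed, so the share of calls among the 9 genes was near that of all genes. By direction, 3 of 83 were higher and 4 lower, against 2.55% and 4.23% over all genes. The calls lay in Aldh1a3 (5), Stra6 (1) and Rdh10 (1). Nothing is read from the Aldh1a3 call in Pax9 fibroblast-like nuclei, where only the aged libraries carried the gene past the filter on low counts. No retinoid gene passed in 7 classes, given here with the share of all genes that passed, namely Htr3a (1.67%), Skor2 (1.48%), TH (2.43%), TRPM8 (1.37%) and low-Malat1 Mrgprd neuron-like (2.92%), endothelial-like (2.26%) and lymphocyte-like nuclei (2.01%). Since there was 1 adult library, whatever else set it apart from the aged libraries cannot be told apart from age, and its spread was assumed to be that of the aged pair. The Pax9 fibroblast-like age effect of Aldh1a3 was also set against the neuron-like ones, a test chosen after its values were seen. The difference was 4.27 on the log2 scale against Kcnh5 (SE 0.535, edgeR adjusted p = 4.59e-12), 4.85 against Chrna7, 3.76 against NF and 4.21 against Mrgprd and Lpar3 neuron-like nuclei. In these contrasts 0.976%, 0.494%, 2.02% and 1.11% of genes passed. Each contrast uses the Pax9 fibroblast-like values, so nothing is read from them.

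**Figure D4:**
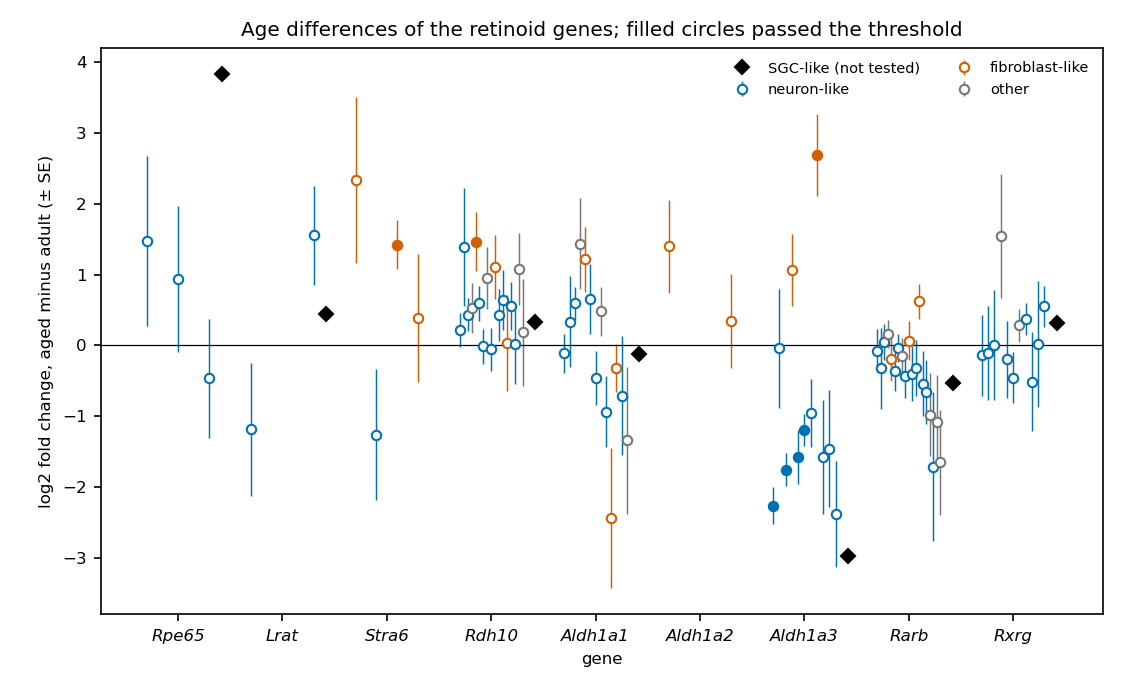
Log2 fold change, aged minus adult, with its SE (vertical axis) for each gene (horizontal axis), 1 circle per class tested outside SGC-like nuclei, filled where the edgeR adjusted p was under 0.05; the 1 test with an adult count of 0 is left out, and SGC-like values are diamonds with no test. Of 7 filled circles, 4 lie below 0, all Aldh1a3 in neuron-like nuclei, and Rpe65 in SGC-like nuclei stands at 3.83.

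The remaining retinoid pathway was examined with 56 other genes, grouped by role. Of 47 that could be tested in a class outside SGC-like nuclei, 14 passed in at least 1 class, with 23 calls in 531 tests (4.33%), 8 higher and 15 lower. This share was below the 6.78% over all genes. With the DESeq2 Wald test 4 calls passed, and with nuclei assigned from at least 2 detected markers 14 did. The rises and falls named below are those of edgeR by cluster, and which of them were kept is not given here. The median log2 fold change of these genes by class ran from -0.15 to 0.46, against -0.02 to 0.06 over all genes. Carriers and uptake genes had 1 higher and 9 lower in 53 tests, and genes of retinol and retinal oxidoreduction 2 higher and 1 lower in 129 tests. Over all genes 2.55% of tests were called higher and 4.23% lower. The 9 lower calls include the 4 of Fabp5 and those of Stra6l given below, and all tests share the same 3 libraries. Fabp5, a fatty acid carrier that can also bring retinoic acid to nuclear receptors, fell in 4 classes: MSC-like, and PEP, SST, and Mrgprd and Lpar3 neuron-like nuclei, where 10.1%, 6.45%, 5.57% and 16.9% of all genes passed. In the last it went from 73.2 to 42.8 and 30.8 CPM (log2 fold change -1.09, SE 0.18, edgeR adjusted p = 9.03e-08), in the class where SGC and MSC markers were lower too, and their part in this call was not tested either. In Slc47a1 fibroblast-like nuclei, where 4.99% of genes passed, Crabp2, a retinoic acid carrier, fell from 64.9 to 15.3 and 29.6 CPM (log2 fold change -1.64, edgeR adjusted p = 0.00904). Crabp1, also a retinoic acid carrier, had 19 UMIs in adult and 0 in aged PEP neuron-like nuclei, so that its level was at least 7.34-fold lower when 3 counts are taken as the limit for the pooled aged libraries. Only the adult library carried Crabp1 past the filter on low counts. Nothing is read from this call, which is among the 23. Stra6l, a retinol transporter gene, fell in NF and in Mrgprd and Lpar3 neuron-like nuclei. It was also called higher in myeloid-like nuclei, where it rested on 1 adult UMI and nothing is read from the call.

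Scarb1, a lipoprotein receptor that takes up carotenoids, fell in MSC-like nuclei from 117 to 40.0 and 41.2 CPM (log2 fold change -1.65, SE 0.22, edgeR adjusted p = 1.45e-08) and in NMSC-like nuclei (8.72% of genes passed). Also in NMSC-like nuclei, Rdh5 fell from 45.6 to 21.7 and 22.0 CPM (edgeR adjusted p = 0.0196), while Dhrs3, which reduces retinal, rose from 10.5 to 29.0 and 33.7 CPM (edgeR adjusted p = 0.044). In that class fibroblast markers summed to 455 CPM in the adult library and to 1316 and 1183 CPM in the aged ones, with 5 of 6 higher in both aged libraries and none at 0. All 7 SGC markers (1701, 1337 and 1327 CPM in sum) and 5 of 6 neuron markers were lower there in both aged libraries. Rdh5 was itself higher in SGC-like than in NMSC-like nuclei of the adult library (111 against 45.6 CPM), and the part of these markers in the calls was not tested. Rai14, named for its induction by retinoic acid, rose in NMSC-like, myeloid-like, and Mrgprd and Lpar3 neuron-like nuclei. Rarres2, the chemerin precursor gene, fell in MSC-like and in Mrgprd and Lpar3 neuron-like nuclei. Rarres2 was at 40.4 CPM in adult SGC-like nuclei, and all 7 SGC markers were lower in both aged libraries of the latter class. Their part in that call was not tested. The myeloid-like class, in which 5.54% of genes passed, rested on 56 adult nuclei, and Lpl, the lipoprotein lipase, rose there from 14.7 CPM (2 UMIs) to 224 and 309 CPM, or 17.7 times the adult level once pooled (4.87 to 147 by counting error). Stra6l rested there on 1 adult UMI (ratio 15.6, interval 2.77 to 620). Only the aged libraries carried Lpl and Stra6l past the filter on low counts in this class, so nothing is read from these 2 calls. Adh5 and the co-regulator Nrip1 rose in NF neuron-like nuclei and Rdh11 fell in Mrgprd and Lpar3 neuron-like nuclei. No receptor outside the 9 genes passed in the 72 edgeR tests of Rara, Rarg, Rxra and Rxrb, of which 8 had an unadjusted p under 0.05, nor in the 52 with an adjusted p from DESeq2.

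A few pathway genes ranked among the 2 highest of their role without passing by age with edgeR. Tgm2, a transglutaminase induced by retinoic acid, was highest in endothelial-like nuclei (182, 142 and 219 CPM). The co-repressor gene Ncor1 was highest in lymphocyte-like nuclei (509, 630 and 662 CPM) and the co-activator gene Ncoa1 in PEP neuron-like nuclei (509, 595 and 622 CPM). Bco2, which cleaves carotenoids, was highest in myeloid-like nuclei, from 2, 16 and 1 UMIs. Cyp26a1, a retinoic acid-clearing enzyme, reached only 1.40, 1.63 and 2.20 CPM in Kcnh5 neuron-like nuclei.

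Genes whose log2(CPM + 1) was most like that of each gene were named over the 67 class-by-library profiles with at least 20 nuclei, which share libraries and depths, so these correlations are descriptions. Rarb was most like Kirrel (Pearson r = 0.904), A830082K12Rik (0.89) and Gm29683 (0.878), and Stra6 most like Zic1 (0.886), Foxd2 (0.88) and Svep1 (0.88). Aldh1a2 was most like Gjb6 (0.835), Nat8f7 (0.822) and Zic2 (0.822), and Aldh1a1 most like Egflam (0.693), Gnasas1 (0.676) and Nfix (0.666). Rdh10 was most like Ints14 (0.788), Heatr3 (0.753) and Mios (0.729), Rxrg most like Zfhx2os (0.746), Zfp536 (0.668) and Cyp2j9 (0.668), and Aldh1a3 most like Tenm2 (0.694), Prtg (0.669) and Casq2 (0.628). For Rpe65 the values were lower, with Gucy2f at 0.626, Shc3 at 0.578 and Gm19935 at 0.572, and for Lrat lower still, with Id4 at 0.577, Ntsr1 at 0.514 and Ctnnbip1 at 0.512. Both had few UMIs.

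These names depended on which profiles entered. Over the 60 profiles of the 20 classes with at least 20 nuclei in every library, an alternative that leaves out Ranbp3l fibroblast-like nuclei, the leading class of Aldh1a1 and Aldh1a2, Aldh1a2 was most like Foxd1 (0.874), Zic1 (0.87) and Smoc2 (0.859), and Stra6 most like Ccdc33 (0.897), the gene that overlaps it. This alternative was added after its values were seen.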

How the data were processed

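Nuclei of L3 to L5 DRG were captured by the authors with PIP-seq. The authors deposited raw UMI counts per gene and barcode, made with Pipseeker by alignment and transcript counting, against mm10 per the submitters' processing notes. The annotation is not given in the sources used here. A barcode needed more than 1000 genes, the cutoff of the study. Nuclei were clustered in Seurat 5.3.0 (SCTransform, RPCA by age, 30 principal components, resolution 0.8) with the retinoid genes left out of the features. A cluster was named from at least 3 markers, or called mixed and left out where a second lineage had 60% of its markers. This rule was set after the clusters were seen, and no doublet caller was run. Exempt from being called mixed were T with B lymphocyte markers, which gave the lymphocyte-like class. NMSC markers as the second list of a neuron or SGC cluster were exempt too. UMIs were summed per class and library and tested by age with the edgeR 4.0.16 quasi-likelihood test (TMM, filterByExpr) in 20 classes, each reaching 20 nuclei per library, with Benjamini-Hochberg adjusted p under 0.05 over all genes of a class and 1 residual degree of freedom. DESeq2 1.42.0 was an alternative. The methods of the study state a test on nuclei, which was not used, since nuclei are not replicates. The fit was also run on simulated counts with known changes. There all libraries had the same spread and the changed genes were well counted. That run therefore cannot judge sparse genes or the unknown spread of a single adult library. Intervals of shares are exact (Clopper-Pearson) and cover counting error only. The 9 genes and the pathway and marker lists were chosen with earlier results of these data known. Named singly were the 9 genes in full, pathway genes that passed by age outside SGC-like nuclei or were among the 2 highest of their role, and for each of the 9 the 3 genes of most like pattern. An item of the pathway list is not reported here. Positions are from GENCODE M21 on GRCm38.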

Additional observations from a re-analysis of the deposited data

Results flagged for a closer look

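The age difference of Aldh1a3 was set against that of other cell classes in 4 contrasts chosen after their opposite directions had been seen, so that the p-values are not independent evidence. In each fit, age was allowed to act differently in 2 classes and the library was a block. On the log2 scale, the difference in Pax9 fibroblast-like nuclei exceeded that in Chrna7 neuron-like nuclei by 4.85, in Kcnh5 neuron-like nuclei by 4.27, in Mrgprd and Lpar3 neuron-like nuclei by 4.21 and in NF neuron-like nuclei by 3.76. The edgeR adjusted p ran from 4.59e-12 to 4.5e-06. All 4 values use the same Pax9 fibroblast-like nuclei, in which 1 nucleus of aged replicate 2 held 22 of 36 UMIs. In the test of that class alone, only the aged libraries carried the gene past the filter on low counts. Nothing is therefore read from these contrasts.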

How the results depend on the processing

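The 7 calls among the 9 genes became 2 with the DESeq2 Wald test (Aldh1a3 in Chrna7 and Kcnh5 neuron-like nuclei) and 1 after thinning to 1000 UMIs (Stra6 in Pax9 fibroblast-like nuclei), when 4 of the 7 pairs of gene and class could not be fitted. The 23 calls of other pathway genes became 4 with DESeq2 and 14 with nuclei assigned directly from at least 2 detected markers. Under the other planned settings the calls among the 9 genes numbered 5 to 8, but they were not always the same calls. With direct assignment the 6 calls kept only Aldh1a3 in NF neuron-like and Pax9 fibroblast-like nuclei. Stra6 was lost and the other main pairs were not fitted. New there were Aldh1a3 in NMSC-like and PEP neuron-like, Rarb in Slc47a1 fibroblast-like and Rpe65 in NMSC-like nuclei. Nothing is read from the last, since the age difference in SGCs chose the gene. Nor is anything read from Aldh1a3 in PEP neuron-like nuclei, where only the adult library carried it past the filter on low counts. DESeq2 gave no adjusted p for Aldh1a3 in NF neuron-like nuclei. The cause was not tested. For Rpe65 in SGC-like nuclei the log2 fold change was 4.12 above 2000 genes, 3.24 with direct assignment and 3.49 with the cluster of neuron and SGC markers added, an alternative chosen after seeing the data. Without aged replicate 1 or 2 it was 3.68 to 4.05. Thinned shares of nuclei with Rpe65 were 0.124%, 1.42% and 1.31%. Aldh1a1 in SGC-like nuclei turned from -0.12 to 0.0199 with free RNA subtracted, and ran from -0.75 to 0.21 when aged replicate 1 or 2 was left out. Thinned Aldh1a1 in Ranbp3l fibroblast-like nuclei was 189 CPM, and Rxrg in NMSC-like nuclei was 211 CPM thinned and 33.4 CPM with direct assignment, which put 843, 740 and 296 nuclei in that class. The sample labels give no pairing of adult with aged libraries, so no paired analysis was made.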
